A study of Mus musculus with 3 samples.

Results

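The nuclear-encoded genes of the mitochondrial respiratory chain were described in myeloid cells (monocytes and macrophages, as labelled) taken by enzymatic digestion from the injured skin of male mice of the inbred strain C57BL6/J. The genes were chosen by name: every gene whose symbol starts with Ndufa, Ndufb, Ndufc, Ndufs, Ndufv, Uqcr, Cox4, Cox5, Cox6, Cox7, Cox8 or Atp5, apart from pseudogenes. The rule found 89 gene identifiers with 88 names among the 31053 in the count tables, 44 under complex I, 8 under complex III, 20 under complex IV and 17 under complex V. The prefix also takes in 8 assembly factors of complex I (Ndufaf genes) and Atp5s, which are no subunits of the finished complexes. They are counted among the members and in the sums of complexes I and V. Counts without them are also given for the comparisons of classes. Ndufa4 and Ndufa4l2 carry a complex I name and were placed with complex IV, where Ndufa4 belongs. Droplet single-cell RNA-seq was performed on wounds at day 3, day 6 and day 10 after injury, with 1 library of 2 pooled mice per day. Strain and sex were the same on all days, the animals carried no labelled transgene, and uninjured skin was not analysed here.

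The respiratory chain passes electrons from NADH and succinate through complexes I and II, ubiquinone, complex III and cytochrome c to oxygen at complex IV, and complex V uses the resulting proton gradient to make ATP. Each of complexes I, III, IV and V is a mosaic: a few subunits are encoded by mitochondrial DNA and all others by nuclear genes whose products are imported. Inflammatory macrophages are known for leaning on glycolysis and alternatively activated ones for relying on oxidative phosphorylation. Several complex IV subunits have alternative isoforms with restricted expression, such as Cox7a1 in muscle, Cox6b2 in testis, and Cox4i2 and Ndufa4l2 in low oxygen.

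Barcodes were kept from 200 genes upward if mitochondrial DNA gave less than 10% of their unique molecular identifiers (UMIs, counted mRNA molecules), which gave 900, 598 and 1362 cells at days 3, 6 and 10. A cell was called positive for a marker from 2 UMIs, and 3 exclusive classes were formed. They are ranges of a count and not cell types. The Ly6c2-positive class (Ly6c2 marks inflammatory monocytes) held 347, 22 and 79 cells at days 3, 6 and 10. The C1qa-positive class (C1qa is a complement gene of macrophages) held 70, 273 and 655 cells, and the Cd209a-positive class (Cd209a marks monocyte-derived dendritic cells) held 103, 105 and 155. In the Ly6c2-positive class 48, 3 and 12 cells lay near the cut, in the C1qa-positive class 1, 28 and 54, and in the Cd209a-positive class 3, 9 and 5. Summed monocyte markers were highest in the Ly6c2-positive class on each day (7862 to 11042 CPM, counts scaled to 1000000 per sum), macrophage markers in the C1qa-positive class (16749 to 24567) and dendritic cell markers in the Cd209a-positive class (2361 to 2653). Of the 10 dendritic cell markers Zbtb46 and Ccr7 were at 0 in the Ly6c2-positive class on each day. Flt3, another of them, had 20, 1 and 11 UMIs there at days 3, 6 and 10. Xcr1 and Clec9a, of the same list, were at 0 in the Cd209a-positive class at day 6. Of the 10 macrophage markers Mertk was at 0 in the Cd209a-positive class at days 3 and 10. The 10 macrophage markers summed to 800, 611 and 628 CPM in that class at days 3, 6 and 10. Neutrophil markers reached 2758 CPM in the 22 Ly6c2-positive cells of day 6, and red cell markers 4160 CPM in the C1qa-positive class of day 6. Both stood at or under 231 CPM in all other sums of the classes. Macrophage markers summed to 4021 to 4847 CPM in the Ly6c2-positive class. Monocyte markers summed to 4343, 1335 and 1433 CPM in the C1qa-positive class at days 3, 6 and 10. In the Cd209a-positive class they summed to 2748, 1689 and 1616 CPM. Libraries shared no barcodes except 2 between days 6 and 10.

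The promoters of the members for which the RefSeq table holds one (71 of 88 names, 250 bases before to 50 after the start) were searched on both strands for binding motifs of factors known to drive respiratory genes. The NRF1 string GCATGCGC was found in 15.5% of the 71 members and in 3.05% of all 27025 genes of the table. The ETS string CCGGAAG, which GABP binds, was found in 22.5% against 9.93%, and the YY1 string AAGATGGC in 14.1% against 3.19%. The hypoxia response core ACGTG was about as frequent in members (22.5%) as in all genes (21.8%), and the TATA box TATAAA was found in 9.86% and 15.7%. These are matches of letters and not bound sites. Among the 17 members with a promoter called lower in C1qa-positive than in Ly6c2-positive cells (below), 5.88% held the NRF1 string and 23.5% the ETS string. Among the 27 called higher in Cd209a-positive than in C1qa-positive cells 11.1% held the NRF1 string and 11.1% the ETS string. The promoters below are those of Ndufa6 and Cox8a, a pair of housekeeping subunits that differed between the classes, and of Cox6b2 and Cox7a1, the isoforms with the largest fold changes between classes. Capitals mark the NRF1 string in Ndufa6 (bases 168 to 175) and the ETS string, read on the opposite strand, in Cox8a (bases 246 to 252 and 283 to 289). The isoform promoters hold none of the NRF1, ETS, YY1 and TATA strings, and that of Cox7a1 holds 1 hypoxia response core. The windows lie at chr15:82354242-82354541, chr19:7217567-7217866, chr7:4753045-4753344 (all minus strand) and chr7:30183921-30184220 (plus strand) of GRCm38.p6.
Ndufa6: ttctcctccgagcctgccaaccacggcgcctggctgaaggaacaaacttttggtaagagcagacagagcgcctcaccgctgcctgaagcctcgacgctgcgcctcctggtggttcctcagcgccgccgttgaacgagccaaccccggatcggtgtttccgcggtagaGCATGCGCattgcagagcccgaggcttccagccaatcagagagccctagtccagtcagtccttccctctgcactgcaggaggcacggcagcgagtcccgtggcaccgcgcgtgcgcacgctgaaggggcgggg
Cox8a: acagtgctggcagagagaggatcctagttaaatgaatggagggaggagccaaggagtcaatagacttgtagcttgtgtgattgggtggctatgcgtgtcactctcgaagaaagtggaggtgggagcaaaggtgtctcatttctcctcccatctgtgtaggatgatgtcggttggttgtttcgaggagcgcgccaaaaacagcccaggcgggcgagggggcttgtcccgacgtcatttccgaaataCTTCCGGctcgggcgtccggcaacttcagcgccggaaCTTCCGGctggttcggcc
Cox6b2: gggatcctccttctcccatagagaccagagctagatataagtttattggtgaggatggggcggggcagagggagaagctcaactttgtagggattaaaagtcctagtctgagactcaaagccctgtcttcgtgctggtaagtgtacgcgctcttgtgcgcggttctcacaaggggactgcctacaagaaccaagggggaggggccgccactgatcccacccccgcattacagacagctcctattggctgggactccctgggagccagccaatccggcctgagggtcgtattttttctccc
Cox7a1: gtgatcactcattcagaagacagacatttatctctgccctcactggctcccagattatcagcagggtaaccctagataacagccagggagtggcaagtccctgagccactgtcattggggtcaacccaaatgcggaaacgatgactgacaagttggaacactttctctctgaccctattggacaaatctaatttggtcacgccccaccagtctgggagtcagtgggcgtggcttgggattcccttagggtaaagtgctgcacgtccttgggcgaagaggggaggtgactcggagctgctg

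The members made up about 2% of all UMIs, and the share differed between classes. In Ly6c2-positive cells the members together stood at 20092, 18228 and 24434 CPM at days 3, 6 and 10. In C1qa-positive cells they stood at 17731, 17372 and 18232 CPM, and in Cd209a-positive cells at 21190, 19056 and 22182 CPM. The C1qa-positive class was the lowest of the 3 on each day, and its range did not overlap that of the Cd209a-positive class. Within single cells the median share was 1.97%, 1.79% and 2.47% of UMIs in Ly6c2-positive cells, 1.64%, 1.59% and 1.65% in C1qa-positive cells, and 2.13%, 1.83% and 2.12% in Cd209a-positive cells. Other properties of the cells moved with the classes. Median depth was 14524 to 17966 UMIs in Cd209a-positive cells, 7732 to 9964 in C1qa-positive and 10281 to 11120.5 in Ly6c2-positive cells. Ribosomal protein genes took a median of 22.3 to 25.3% of UMIs in Cd209a-positive cells and 10.3 to 13.7% in C1qa-positive cells, and in Ly6c2-positive cells 13.3%, 11.6% and 22.5% at days 3, 6 and 10. Their part in the result was not tested.

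**Figure D1:**
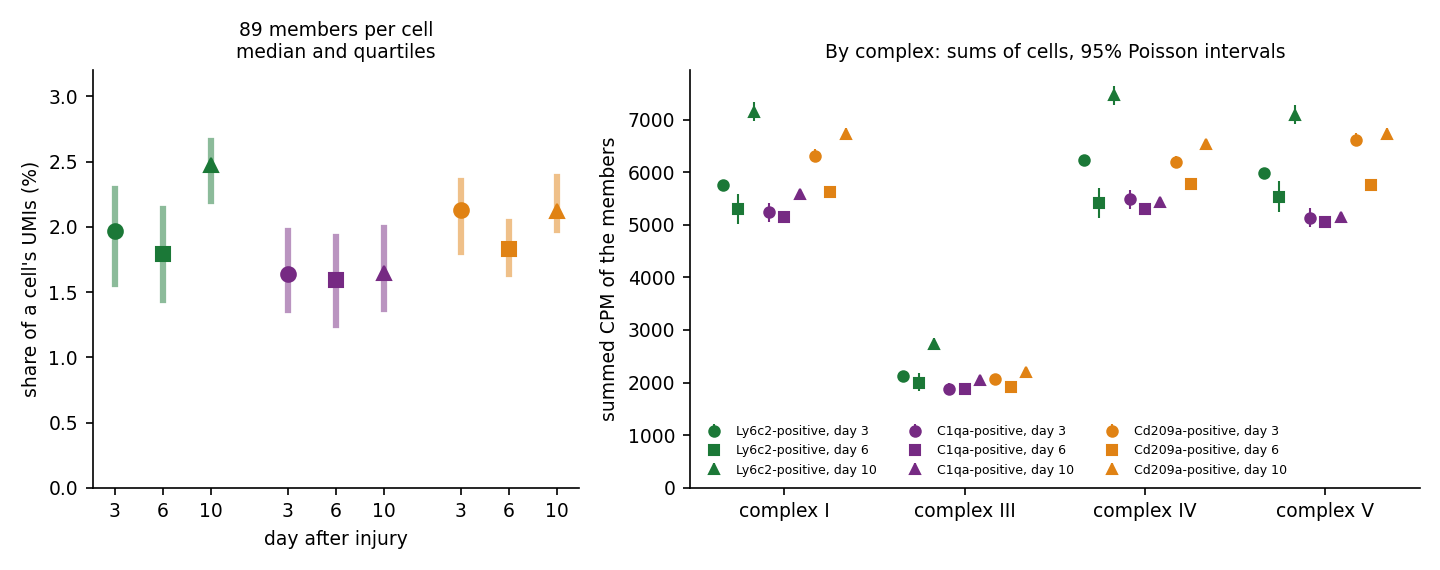
Left: share of a cell's UMIs (%) from the 89 members by class and day after injury, with the median over cells as a symbol and the quartiles as a bar. Right: summed CPM of the members of each complex in each class and day, with 95% Poisson intervals for counting error. C1qa-positive cells (purple) lie lowest at 1.59 to 1.65%, and Ly6c2-positive cells of day 10 (green triangle) highest at 2.47%.

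At day 10 the order Ly6c2-positive, Cd209a-positive, C1qa-positive held for each complex. Complex I summed to 7151 CPM in Ly6c2-positive, 6728 in Cd209a-positive and 5591 in C1qa-positive cells on that day, complex III to 2739, 2198 and 2056, complex IV to 7457, 6529 and 5439, and complex V to 7087, 6727 and 5146. In single cells of day 3 the median share was higher in Cd209a-positive than in Ly6c2-positive cells for complexes I, IV and V. The values were 0.622% against 0.547%, 0.627% against 0.603% and 0.646% against 0.597%. For complex III it was 0.204% against 0.208%. At day 6 it was higher in Cd209a-positive cells for every complex, and on both days C1qa-positive cells had the lowest medians. Over all kept cells the most abundant members belonged to complexes IV and V: Cox4i1, the largest nuclear-encoded subunit of complex IV, averaged 920 CPM over the 3 libraries, Atp5e of the complex V rotor 895 CPM, Cox8a 706, Cox7c 700 and Atp5l 657 CPM. The 18 most abundant members held 49.6% of the members' total. These are counts of transcript ends and carry no correction for length. Cox7b2, Cox8c and the second Atp5o identifier, a long model that spans neighbouring genes, had 0 UMIs. Of the 88 names, 27 overlap another protein-coding gene (Ndufb2 and Braf, Atp5d and Cbarp, Ndufa4l2 and Shmt2 among them), and no source used here says whether counting was strand-specific. Barcodes left out for their mitochondrial share held 8055, 8196 and 7046 CPM of the members, below every class.

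The first comparison set C1qa-positive against Ly6c2-positive cells within each library, with edgeR's quasi-likelihood test on the 9 sums (3 libraries by 3 classes) and adjustment over the 9421 genes tested. Its replicates are the 3 libraries, each a pool of mice at another day, and the classes of a library share that pool. Of the 81 members tested, 18 were lower in C1qa-positive cells (6.75% of all genes were) and 0 were higher (5.59% of all genes were). The median log2 fold change of the members was -0.37, with 70 of 81 below 0, against 0.01 over all genes. At an unadjusted p under 0.05 (edgeR) there were 39 of the 81 members in either direction, against 2554 of all 9421 genes. By complex 9 of 44, 2 of 8, 3 of 14 and 4 of 15 members of complexes I, III, IV and V were lower. The 9 of complex I include 1 of its 8 assembly factors. Without assembly factors 17 of 73 members were lower and 0 higher.

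Uqcrfs1, the Rieske iron-sulfur protein of complex III, stood at 92.3, 81.9 and 87.4 CPM in C1qa-positive cells at days 3, 6 and 10 and at 131, 138 and 173 CPM in Ly6c2-positive cells. It was lower in C1qa-positive cells on every day, by a log2 fold change of -0.92 (SE 0.18, edgeR adjusted p = 0.0067). Ndufa4 of complex IV stood at 271, 215 and 183 CPM against 359, 300 and 390 (-0.81, SE 0.19, edgeR adjusted p = 0.0189). Atp5c1, the gamma subunit that forms the central shaft of complex V, stood at 229, 209 and 195 CPM against 300, 323 and 369 (-0.80, SE 0.17, edgeR adjusted p = 0.012). For both genes the classes did not overlap. In complex I the largest differences were those of Ndufs8 (-0.79), a core subunit that carries iron-sulfur clusters, Ndufs4 (-0.77), an accessory subunit whose loss in mice gives a Leigh-like disease, and Ndufa6 (-0.72). Ndufs8 levels overlapped between the classes, with 84.3, 65.8 and 53.6 CPM against 108, 80.7 and 119. Ndufaf7 and Cox6b2 had larger fold changes at low levels (-1.66 and -1.87). They lie under the 50 CPM asked of named members and were chosen after their values were seen. Ndufaf7 was seen as 1 UMI in the Ly6c2-positive sum of day 6, and its levels overlapped.

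The count of 18 rested on all libraries. It was 3 without day 3, 1 without day 6 and 0 without day 10, with medians of -0.38, -0.43 and -0.24. Over all genes 412 of 9339, 210 of 8999 and 147 of 8965 were lower in these fits, against 636 of 9421 with all libraries. Without the 22-cell sum of day 6 alone the count of members was 13 (471 of 9437 over all genes). With cells of several markers counted in each of their classes it was 3 (242 of 9689). Without scaling factors the median of all genes moved to 0.17, the members' median was -0.21 and 7 members were lower (418 of 9421 over all genes).

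Cd209a-positive cells held more of the members than C1qa-positive cells. Of 81 members 29 were higher (17% of all genes were) and 1, Cox7a1, was lower (18.5% of all genes were). The median log2 fold change was 0.39 against a median near 0 over all genes. Higher members came from every complex: 13 of 44 in complex I, 3 of 8 in complex III, 6 of 14 in complex IV and 7 of 15 in complex V. The 13 of complex I include 2 of its 8 assembly factors. Without assembly factors 27 of 73 members were higher and 1 lower. In complex III all 3 of the core and Rieske subunits were higher (Uqcrc1, Uqcrc2 and Uqcrfs1) and none of the 5 small ones. At an unadjusted p under 0.05 (edgeR) in either direction there was 1 of these 5, against 4186 of all 9421 genes.

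Ndufa6, an accessory subunit of the complex I matrix arm at chr15:82350140-82354322 (GRCm38, minus strand), was the abundant member with the largest difference. It stood at 586, 649 and 684 CPM in Cd209a-positive cells at days 3, 6 and 10, at 191, 243 and 285 CPM in C1qa-positive cells and at 278, 369 and 426 CPM in Ly6c2-positive cells. The Cd209a-positive values lay above both other classes on every day. The fold over C1qa-positive cells was 2.99 (log2 1.58, SE 0.16, edgeR adjusted p = 1.81e-05), and that over Ly6c2-positive cells 1.81 (log2 0.86, SE 0.16, edgeR adjusted p = 0.00273).

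Among the other members Ndufv1, which binds NADH and the flavin of complex I, stood at 68.4, 72.5 and 74.1 CPM against 44.6, 40.1 and 38.4 in C1qa-positive cells (log2 0.98, SE 0.17, edgeR adjusted p = 0.000832). Atp5c1 stood at 400, 348 and 358 CPM against 229, 209 and 195 (0.95, SE 0.17, edgeR adjusted p = 0.000933). Ndufs8 differed by 0.85, Cox7a2l by 0.84, and Uqcrfs1 by 0.79 on the log2 scale. The 3 genes for subunit c, the proton-carrying ring of complex V, code for the same mature protein and did not pass alike. Atp5g1 was higher (341, 239 and 335 CPM against 221, 173 and 187, log2 0.79) and so was Atp5g2 (428, 456 and 530 against 288, 403 and 435, log2 0.49). Of 17 alternative settings Atp5g2 failed to pass in 8 and Atp5g1 in 0. Atp5g3 did not pass (log2 -0.09, edgeR adjusted p = 0.719). The differences between these 3 genes were not tested.

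**Figure D2:**
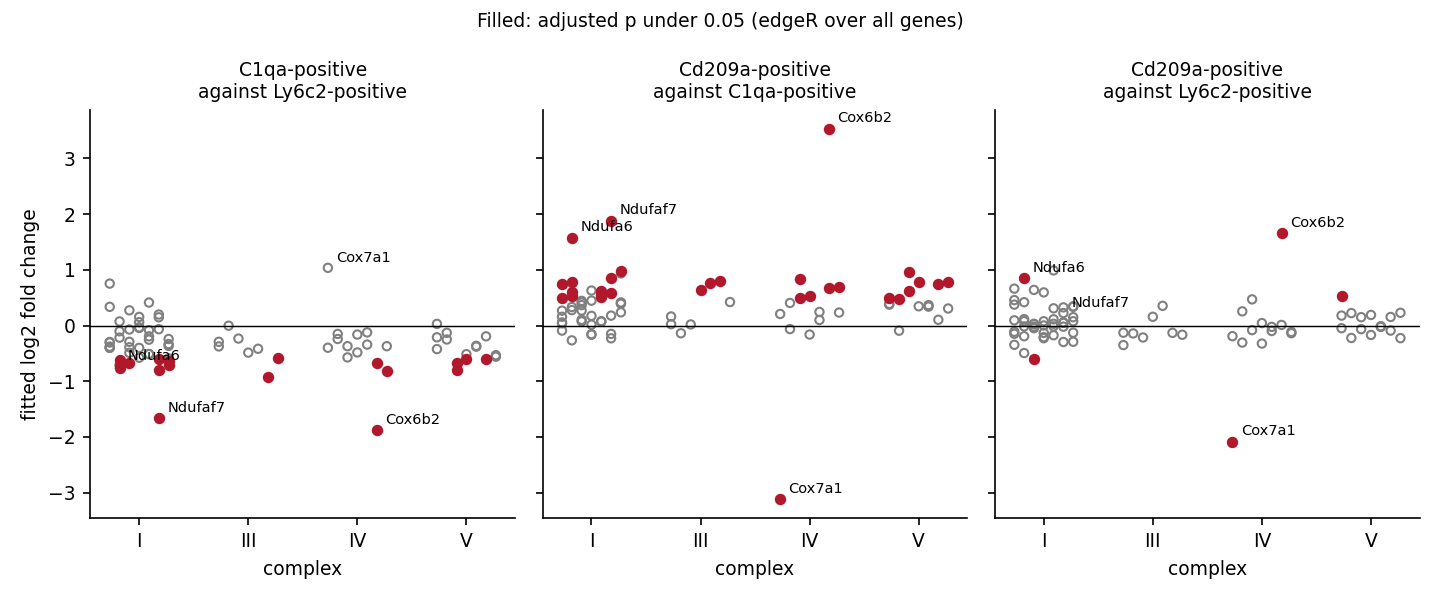
Fitted log2 fold change (vertical axis) of each of the 81 members tested, by complex, in the 3 comparisons of classes. Filled symbols passed an adjusted p under 0.05 in edgeR. Most members lie below 0 in the left panel (70 of 81) and above 0 in the middle panel (70 of 81), and Cox6b2 and Cox7a1 lie apart.

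Between Cd209a-positive and Ly6c2-positive cells few members differed. Of 81, 3 were higher in Cd209a-positive cells (8.25% of all genes were): Ndufa6, Atp5g2 and Cox6b2. A further 2 were lower (11.6% of all genes were): Cox7a1 and Ndufb2. Without assembly factors 3 of 73 members were higher and 2 lower. The median was -0.01. Atp5g2 stood at 428, 456 and 530 CPM against 254, 361 and 381 (log2 0.52, SE 0.16, edgeR adjusted p = 0.0402). Ndufb2 stood at 102, 83.5 and 88.6 CPM against 126, 111 and 178 (-0.59, SE 0.19, edgeR adjusted p = 0.0442). Both calls depended on the setting: of 17 alternative settings Atp5g2 failed to pass in 9 and Ndufb2 in 13. Over the 3 comparisons, which share their sums, 47 members were called in none.

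The count of 29 higher members was 16 without day 3, 15 without day 6 and 13 without day 10. Over all genes 1187 of 9339, 1078 of 8999 and 920 of 8965 were higher in these fits, against 1605 of 9421 with all libraries. The count of members was 18 without scaling factors (1236 of 9421 over all genes), where the median of all genes moved to -0.16 and that of the members was 0.24. Leaving mitochondrial and ribosomal protein genes out of the totals gave 27 (1476 of 9246 over all genes). Taking cells of 5000 to 20000 UMIs also gave 27 (1567 of 8929).

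The isoforms of complex IV went separate ways. Cox6b2 (chr7:4751792-4753094, minus strand), the isoform known from testis, stood at 14.6, 40.1 and 52.9 CPM in Cd209a-positive cells at days 3, 6 and 10. It stood at 3.18, 3.29 and 4.35 CPM in C1qa-positive cells, on 2, 10 and 24 UMIs. In Ly6c2-positive cells it stood at 7.95, 7.68 and 10.6 CPM, on 30, 2 and 9 UMIs. Cd209a-positive cells were highest on every day, 11.6-fold over C1qa-positive (log2 3.54, SE 0.34, edgeR adjusted p = 9.48e-06) and 3.17-fold over Ly6c2-positive cells (log2 1.66, SE 0.34, edgeR adjusted p = 0.0044). At least 1 UMI was found in 16.5%, 39% and 41.9% of Cd209a-positive cells and in 2.56 to 3.05% of the shallower C1qa-positive cells. The ubiquitous counterpart Cox6b1 stood at 575.5, 508.1 and 581.3 CPM in Cd209a-positive cells, so Cox6b2 remained the minor form.

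Cox7a1 (chr7:30184144-30186078, plus strand), the isoform known from heart and skeletal muscle, showed the opposite order. It stood at 11.1, 15.8 and 21.9 CPM in C1qa-positive cells, at 7.42, 7.68 and 4.72 in Ly6c2-positive cells and at 0.584, 1.65 and 2.71 in Cd209a-positive cells, where it rests on 1, 3 and 6 UMIs. The log2 fold change of Cd209a-positive against C1qa-positive cells was -3.12 (SE 0.44, edgeR adjusted p = 0.000181). Against Ly6c2-positive cells it was -2.08 (SE 0.55, edgeR adjusted p = 0.019). The C1qa-positive level against the Ly6c2-positive one did not pass (log2 1.04, edgeR adjusted p = 0.141). Its ubiquitous counterpart Cox7a2 stood at 337.3 to 380.3 CPM in C1qa-positive cells.

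Ndufa4l2 (chr10:127514967-127517154, plus strand), a hypoxia-induced relative of Ndufa4, was seen in C1qa-positive cells and in cells with no marker. C1qa-positive cells held 0, 10 and 112 UMIs at days 3, 6 and 10, or 0, 3.29 and 20.3 CPM. With 3 UMIs taken for the 0 of day 3, the day 10 level was 4.25-fold that of day 3. It was 6.17-fold that of day 6 (95% interval 3.23 to 13.2). No UMI was found in Ly6c2-positive or Cd209a-positive cells on any day. With 3 cells taken for the 0, 0 of 155 Cd209a-positive cells at day 10 allows up to 1.94% of cells with a UMI, which covers counting error only and does not limit the cells that express the gene. The 112 UMIs came from 25 of 655 cells (3.82%, exact binomial 95% interval 2.48 to 5.58%), and 78 of them from 5 cells, with 39 in 1 cell. At day 6 the UMIs of C1qa-positive cells came from 5 of 273 cells (1.83%, 0.597 to 4.22%). At day 3, 0 of 70 cells allows up to 4.29% with 3 cells taken for the 0. The shares of cells with a UMI were thus not separated between days. Cells without a marker held 0, 0 and 50 UMIs. The other isoforms were near 0: in the classes Cox4i2 had at most 11 UMIs in a sum, Cox6a2 at most 13 and Cox8b at most 1.

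**Figure D3:**
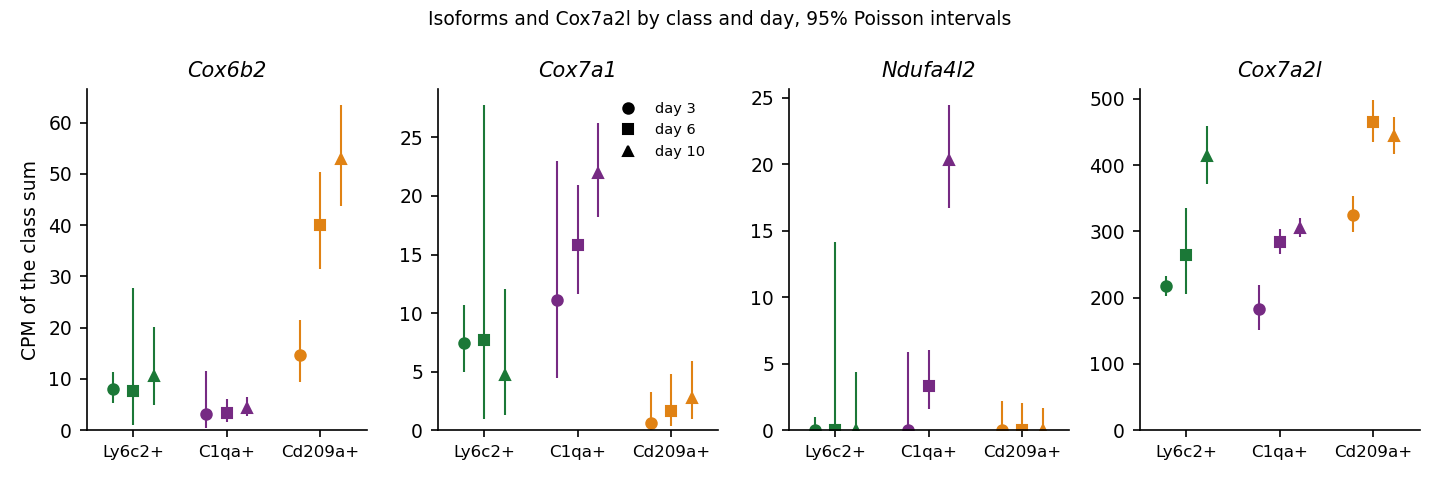
CPM of Cox6b2, Cox7a1, Ndufa4l2 and Cox7a2l in the sum of each class at days 3 (circle), 6 (square) and 10 (triangle), with 95% Poisson intervals for counting error and vertical axes that start at 0. Cox6b2 is highest in Cd209a-positive cells (14.6 to 52.9 CPM), Cox7a1 and Ndufa4l2 in C1qa-positive cells, and the day 3 level of Cox7a2l is the lowest within each class.

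Between days there was 1 library each, so ratios of CPM are given with exact conditional binomial 95% intervals that cover counting error only, with no p-value. Members with at least 20 UMIs over both sums were compared, and a member is counted as higher or lower from 1.5-fold. Shares over all genes were taken in the main setting only, so day counts under other settings stand without one. 

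In Ly6c2-positive cells the members were higher at day 10. Their sum was 1.22-fold that of day 3 (1.20 to 1.23), and complexes I, III, IV and V were 1.24, 1.29, 1.20 and 1.19-fold. The median log2 ratio of 79 members was 0.26 against -0.02 over all genes. From 1.5-fold, 8 members were higher (14.5% of all genes were) and 1 was lower (19% of all genes were). Cox7a2l stood at 218, 265 and 414 CPM at days 3, 6 and 10, and was 1.90-fold at day 10 against day 3 (1.67 to 2.16). Uqcrh, the hinge protein between cytochrome c1 and cytochrome c, stood at 558.3, 633.7 and 908.3 CPM (1.63-fold, 1.496 to 1.77). Ndufa6 was 1.53-fold (1.36 to 1.73). The ribosomal protein share of these cells was 13.3% at day 3 and 22.5% at day 10. Its part in the result was not tested, and with ribosomal protein and mitochondrial genes left out of the totals the median was 0.37 against 0.09 over all genes, with 14 members higher and 0 lower.

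Day 6 in this class is a sum of 22 cells. Day 6 against day 3 had a median of -0.17 (all genes 0.16), with 2 of 78 members higher (27.8% of all genes were) and 4 lower (11.7% of all genes were). Uqcrc1, a core protein of complex III, stood at 53.8 CPM on 14 UMIs at day 6 and at 112 and 126 CPM at days 3 and 10. Day 10 against day 6 had a median of 0.41 (all genes -0.02), with 23 of 74 members higher (19.2% of all genes were) and 1 lower (23.3% of all genes were). Of these 23, 16 belonged to complex I, which had 39 of the 74 members measured. The neutrophil markers of this day 6 sum (2758 CPM, against 231 and 170 at days 3 and 10) and its cycling markers (323 CPM, against 6.63 and 2.36, with 1 cycling cell) moved with it. The part of the neutrophil markers was not tested, and without the cycling cell the day 6 against day 3 median was -0.20, with 4 members higher and 9 lower. With TMM factors 0 were higher and 11 lower.

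The make-up of the C1qa-positive class also differed between days, with monocyte markers at 4343, 1335 and 1433 CPM at days 3, 6 and 10. Their part in the ratios was not tested. In C1qa-positive cells the members together were 1.03-fold at day 10 against day 3 (1.01 to 1.05). The median was 0.01 (all genes 0.04), and 8 of 83 members were higher (19.2% of all genes were) and 4 lower (14.7% of all genes were). With TMM factors, and with positivity from 4 UMIs, 4 were higher and 6 lower, and with no mitochondrial limit 10 and 1. The median was -0.07 with TMM factors and with cells of several markers in each of their classes. Single members went both ways. Cox7a2l stood at 183, 285 and 306 CPM at days 3, 6 and 10, 1.67-fold at day 10 against day 3 (1.38 to 2.03), and Ndufb9 was 1.54-fold at day 10 (1.23 to 1.96). Ndufs8 was at 0.636-fold (0.474 to 0.869), Uqcrc1 at 0.650-fold (0.495 to 0.866) and Ndufs4 at 0.660-fold (0.504 to 0.877). Day 6 against day 3 had a median of -0.04 (all genes 0.16), with 2 of 78 higher (24.4% of all genes were) and 1 lower (10.5% of all genes were). Day 10 against day 6 had a median of 0.04 (all genes -0.09), with Ndufa4l2 as the 1 of 83 higher (7.36% of all genes were) and 0 lower (12.9% of all genes were).

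In Cd209a-positive cells, as in the other classes, the sum of members was lowest at day 6, which is 1 library. Over all kept cells it was 0.896-fold at day 6 against day 3 (0.890 to 0.902) and 1.105-fold at day 10 against day 6 (1.098 to 1.113). In Cd209a-positive cells it was 0.899-fold at day 6 against day 3 (0.886 to 0.913) and 1.16-fold at day 10 against day 6 (1.15 to 1.18). The medians were -0.23 (all genes 0.10) and 0.24 (all genes -0.07). Day 6 against day 3 had 2 of 80 members higher (18.1% of all genes were) and 3 lower (8.59% of all genes were), the lower ones being Ndufa12, Ndufs5 and Ndufaf5. The lower count was 8 with TMM factors, 8 in cells of 5000 to 20000 UMIs and 6 with cells of several markers in each of their classes. Day 10 against day 6 had 3 of 79 higher (7.14% of all genes were), namely Ndufc1, Ndufs7 and Ndufaf2, and 0 lower (14% of all genes were). Day 10 against day 3 had a median of 0.06 (all genes 0.03), with 3 of 80 higher (12.7% of all genes were) and 2 lower (10.3% of all genes were). Cox6b2 was 3.62-fold (2.34 to 5.82) at day 10 against day 3. Atp5b, the catalytic beta subunit of complex V, stood at 456.3, 343.9 and 311.9 CPM at days 3, 6 and 10 and was 0.684-fold at day 10 (0.616 to 0.758). In C1qa-positive cells Atp5b was 0.674-fold (0.585 to 0.779), and in Ly6c2-positive cells 0.922-fold (0.802 to 1.06).

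Cox7a2l (chr17:83501918-83517330, minus strand) was higher at day 10 than at day 3 in all 3 classes, beyond counting error. Its protein has been linked to supercomplexes of complexes III and IV, which were not measured here. In Cd209a-positive cells it stood at 325, 465 and 444 CPM (1.37-fold at day 10 against day 3, 1.23 to 1.52).

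**Figure D4:**
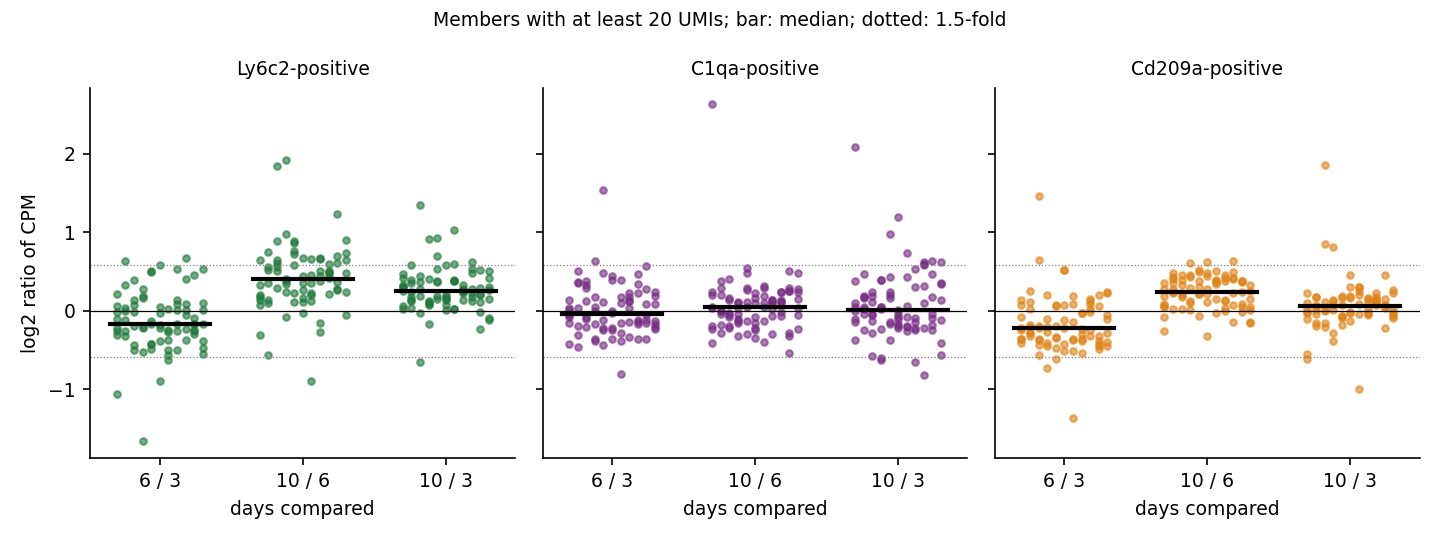
Log2 ratio of CPM between pairs of days for each member with at least 20 UMIs, by class; the bar is the median over members and dotted lines mark 1.5-fold. The medians are 0.26 in Ly6c2-positive, 0.01 in C1qa-positive and 0.06 in Cd209a-positive cells for day 10 against day 3.

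The subunits encoded by mitochondrial DNA were highest in C1qa-positive cells, where the nuclear members were lowest, on each day. Summed over the 13 genes they stood at 46550, 43420 and 35532 CPM in C1qa-positive cells at days 3, 6 and 10. They stood at 40728, 39098 and 29877 CPM in Ly6c2-positive and at 30701, 28383 and 22492 CPM in Cd209a-positive cells. The sum was lower at each later day in every class, and the sum of nuclear members was not in any. In Cd209a-positive against C1qa-positive cells 11 of 13 were lower (18.5% of all genes were) and 0 higher (17% of all genes were). The lower ones were 6 of 7 in complex I, mt-Cytb of complex III, 3 of 3 in complex IV and mt-Atp8 of complex V. mt-Nd1 differed by -0.65 (SE 0.14, edgeR adjusted p = 0.00298) and mt-Co1 by -0.49 (SE 0.11, edgeR adjusted p = 0.00497). Against Ly6c2-positive cells 8 of 13 were lower in Cd209a-positive cells (11.6% of all genes were). Without day 3, 6 or 10 the 11 became 7, 2 and 8, and the 8 became 0, 0 and 6. Over all genes 1467 of 9339, 1289 of 8999 and 1079 of 8965 were lower in these fits against C1qa-positive cells. Against Ly6c2-positive cells 542, 770 and 784 were. C1qa-positive against Ly6c2-positive cells gave 0 of 13 (5.59% of all genes were higher and 6.75% lower). At an unadjusted p under 0.05 (edgeR) there were 2 of 13, against 2554 of all 9421 genes. The filter on cells uses these genes. With no mitochondrial limit 13 of 13 were lower in Cd209a-positive than in C1qa-positive cells (1838 of 9485 over all genes). Of 81 nuclear members 42 were higher there (1741 of 9485 over all genes). At that setting 7 of the 13 mitochondrially encoded genes were higher in C1qa-positive than in Ly6c2-positive cells (569 of 9485 over all genes). Across the barcodes of day 10 the median share of nuclear members was 1.84% with under 2.5% mitochondrial UMIs, 1.85% with 2.5 to 5%, 1.48% with 5 to 10%, 0.664% with 10 to 20% and 0.456% from 20%. Median depth in these groups of barcodes was 10867, 8936, 3983.5, 2275 and 1812 UMIs, and its part in the result was not tested.

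**Figure D5:**
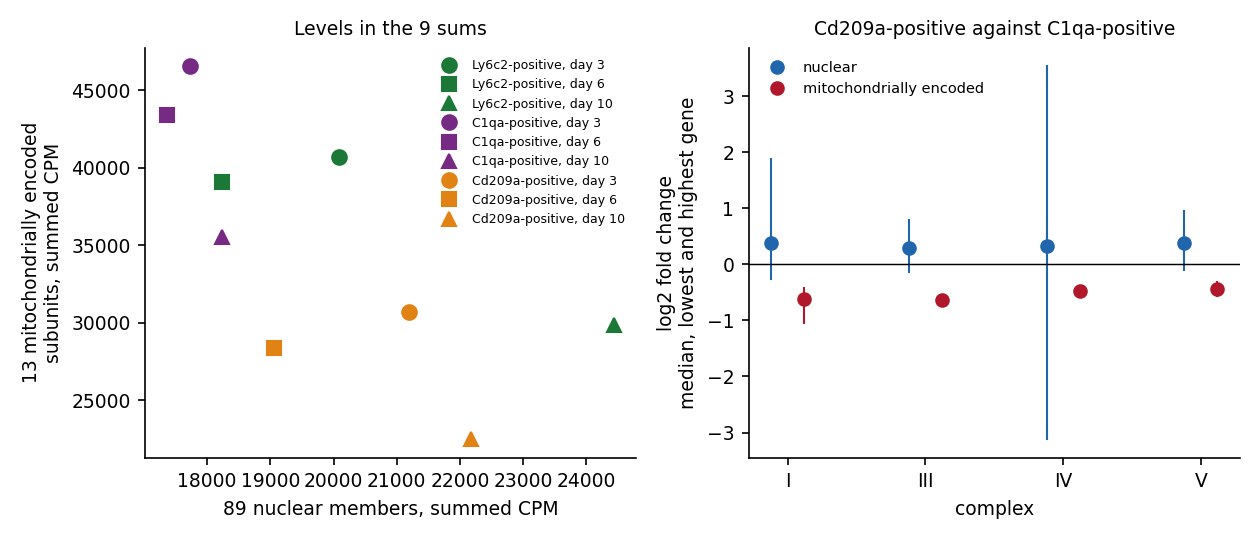
Left: summed CPM of the 13 mitochondrially encoded subunits against that of the 89 nuclear members in the 9 sums of class and day (axes do not start at 0). Right: log2 fold change of Cd209a-positive against C1qa-positive cells by complex, with the median as a point and a line from the lowest to the highest gene. Medians of nuclear members lie above 0 and those of mitochondrially encoded genes below 0 in each complex.

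Other genes of the pathway were taken from lists. Over all genes 17% were higher and 18.5% lower in Cd209a-positive than in C1qa-positive cells. In C1qa-positive against Ly6c2-positive cells 5.59% were higher and 6.75% lower. The counts of assembly factors and of regulators given below do not exceed these shares. Cycs (cytochrome c, the carrier between complexes III and IV) and Cyc1 (the cytochrome c1 subunit of complex III, outside the name rule) were higher in Cd209a-positive than in C1qa-positive cells (log2 0.67 and 0.61), and Cycs was lower in C1qa-positive than in Ly6c2-positive cells (-0.86, edgeR adjusted p = 0.0101). Of 4 complex II genes 0 were called in any comparison, with 2 at an unadjusted p under 0.05 in C1qa-positive against Ly6c2-positive cells. Of 8 carriers and related genes, 3 were higher in Cd209a-positive than in C1qa-positive cells: the ATP/ADP carriers Slc25a4 (log2 1.26) and Slc25a5 (0.55), and the outer membrane channel Vdac3 (0.61). Slc25a5 was also lower in C1qa-positive than in Ly6c2-positive cells (-0.91). Of 23 assembly factors of complexes III, IV and V tested, 2 were higher (Cox18 and Surf1) and 1 lower (Coa5) in Cd209a-positive than in C1qa-positive cells. Of 10 regulators of mitochondrial genes tested 1 was lower there, Ppargc1b, at 0.904 to 8.52 CPM. Of 6 genes by which low oxygen acts on respiration 5 were lower in Cd209a-positive than in C1qa-positive cells, namely Hif1a, Bnip3, Pdk1, Mxi1 and Lonp1. Bnip3 stood at 95.5, 167 and 560 CPM in C1qa-positive cells at days 3, 6 and 10 and at 18.1, 11 and 11.8 CPM in Cd209a-positive cells (log2 -3.95, SE 0.47, edgeR adjusted p = 5.11e-05). Bnip3 and Pdk1, a kinase that inhibits pyruvate dehydrogenase, were also higher in C1qa-positive than in Ly6c2-positive cells.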

How the data were processed

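The deposited files hold raw UMI counts per gene and barcode for 3 libraries (day 3, 6 and 10), each of 2 pooled mice. The authors used Cell Ranger 3.0.2 and mm10, per the submitters' processing notes. No source used here names the annotation release, and gene positions come from GENCODE vM21 (GRCm38). Kept cells had 200 or more genes and under 10% mitochondrial UMIs. No doublet caller was run, no doublets were removed, and free RNA was not corrected. Counts were summed per library and class (sums of under 20 cells left out). Classes were compared with edgeR 4.0.16 (quasi-likelihood, TMM, filterByExpr, library and class as terms, Benjamini-Hochberg adjustment over all genes, threshold 0.05; the 3 marker genes not tested), with the 3 libraries as replicates that also differ in day. Days have 1 library each and no test. Sums under 3 UMIs were set to 3 in ratios. The fit was tested on simulated data. DESeq2 1.42.0, other filters, factors and left-out libraries were alternatives. Named members are fixed ones, the 6 largest and 6 smallest fold changes per comparison of classes (50 CPM or more) and the 3 largest and smallest ratios per pair of days, not all of them printed. Members and lists were chosen with earlier results of these data known. Intervals cover counting error only, not the spread between mice. The Poisson and binomial intervals are at 95%.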

Additional observations from a re-analysis of the deposited data

Results flagged for a closer look

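A pair of members moved by at least 1.5-fold in opposite directions in different classes between day 3 and day 10, and the difference was not tested. Cox7a1 had a log2 ratio of 0.98 in C1qa-positive cells and of -0.65 in Ly6c2-positive cells, where it rests on 28 and 4 UMIs at days 3 and 10. Ndufaf7, an arginine methyltransferase that acts on a complex I subunit, had 1.02 in Ly6c2-positive cells (81 and 37 UMIs) and -0.81 in C1qa-positive cells (9 and 45 UMIs). In C1qa-positive cells the interval of the Ndufaf7 ratio (0.275 to 1.33-fold) spans no change, as does that of Cox7a1 in either class.

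Alternative complex IV isoforms were also found above 3 UMIs in barcodes left out at the 10% mitochondrial limit, some of which enter only the alternatives with a higher limit or none. Cox6a2 had 5 UMIs there at day 6. Cox6b2 had 4, 7 and 7 UMIs and Cox7a1 12, 20 and 8 UMIs at days 3, 6 and 10. Ndufa4l2 had 6 UMIs at day 6 and 17 at day 10, the latter in 17 barcodes with 1 UMI each, or 9.48 CPM.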

How the results depend on the processing

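C1qa-positive against Ly6c2-positive cells had 18 members lower and 0 higher. The lower count was 8 with positivity from 4 UMIs, 3 with cells of several markers in each of their classes, 3 without the library term, 7 without scaling factors and 11 in cells of 5000 to 20000 UMIs, and 0 to 3 when 1 library was left out. The higher count was 1 with positivity from 1 UMI and 1 with no filter on low counts. Calls over all genes also changed with the setting. Of all genes 636 of 9421 were lower in the main fit and 386 of 9387 with positivity from 4 UMIs. Without the library term 309 of 8988 were lower, and 483 of 8929 in cells of 5000 to 20000 UMIs. Cd209a-positive against C1qa-positive cells had 29 higher and 1 lower. The higher count was 17 without the library term (1211 of 8988 over all genes), 18 without scaling factors and 13 to 16 when 1 library was left out. The lower count was 2 with no filter. Cd209a-positive against Ly6c2-positive cells had 3 higher and 2 lower. With 1 library left out these were 1 to 2 and 0 to 1. The lower count was 0 with positivity from 4 UMIs. It was 1 with a mitochondrial limit of 20%, no limit, positivity from 1 UMI, several markers, DESeq2, upper quartile factors, no filter, no library term or without the day 6 Ly6c2-positive sum. Between days the Cox7a1 ratio in Ly6c2-positive cells (day 10 against day 3, log2 -0.65) was 0.52 with positivity from 1 UMI and 0.13 with several markers. The median ratio of members was 0.37 for Ly6c2-positive cells, day 10 against day 3, without mitochondrial and ribosomal protein genes. With TMM factors it was -0.27 for Ly6c2-positive, -0.20 for C1qa-positive and -0.34 for Cd209a-positive cells (day 6 against day 3), 0.12 for C1qa-positive (day 10 against day 6) and 0.0033 for Cd209a-positive cells (day 10 against day 3). In C1qa-positive cells it was 0.12 (day 10 against day 3) and 0.16 (day 10 against day 6) with no mitochondrial limit, -0.14 with several markers (day 6 against day 3) and 0.12 at 5000 to 20000 UMIs (day 10 against day 6). The causes were not tested.

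No paired analysis was possible because each day has 1 library, and the library term already joins the classes of a library. Scaling factors, depth, cycling cells and the day 6 Ly6c2-positive sum were alternatives chosen after seeing the data. Positivity from 4 UMIs and the depth range left under 20 Ly6c2-positive cells at day 6, so those ratios were not computed. Depth limits the alternative isoforms: Cox7a1 had 1 to 7 UMIs in 6 of the 9 sums, and Cox8b at most 1 in any.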

Other observations

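At day 10 the C1qa-positive cells with an Ndufa4l2 UMI were set beside those without one, at median depths of 7210 and 7736.5 UMIs. In the 25 C1qa-positive cells with a UMI, Bnip3, a hypoxia-induced mitophagy receptor, stood at 933 CPM, against 546 CPM in the 630 cells without one. Hif1a stood at 878 and 625 CPM. Ndufa4 stood at 100 CPM (95% Poisson interval 61.3 to 155) and 186 CPM (175 to 198), and all members together at 17907 and 18244 CPM. These cells were chosen by their Ndufa4l2 UMIs, so no test is given. Higd1a, a hypoxia-induced protein of the respiratory chain, stood at 321 CPM (247 to 410) and 233 CPM (220 to 247). Pdk1 stood at 95.3 CPM on 19 UMIs (57.4 to 149) and at 67.5 CPM (60.7 to 74.9). Mxi1 stood at 236 CPM (173 to 313) and 199 CPM (187 to 211), and Lonp1 at 50.2 CPM (24.1 to 92.2) and 24.8 CPM (20.8 to 29.4). The 95% Poisson intervals of Pdk1, Mxi1 and Lonp1 overlapped.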
